A study of Procambarus clarkii with 12 samples.

Results

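The comparison described here set the hepatopancreas of male red swamp crayfish (*Procambarus clarkii*) kept with 5 mg/L cadmium (the Cd5 group) against that of males kept with 0 mg/L (the controls), both for 72 h. It used 3 RNA-seq libraries of each group, 6 of the 12 in the series, chosen by their titles. Groups with 2 mg/L (Cd2) and 10 mg/L (Cd10), 3 libraries each, entered the fit to share 1 estimate of the spread, and their levels are given beside single clusters or classes. The labels state no strain, age or other treatment, nor if animals were pooled. The spread behind each p-value is that among these libraries, and part of it may be technical. Each library has values for the same 176325 gene clusters, groups of assembled transcript sequences, and 57151 of them had enough counts to be tested. The identifiers carry no gene names and 0 of them were found in the RefSeq gene table. The labelled tissue could therefore not be checked against marker genes, and no pathway could be followed by name.

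The hepatopancreas is the digestive gland of decapod crustaceans. It secretes digestive enzymes, absorbs and stores nutrients, and is a main site of metal storage and detoxification. Cadmium is a toxic metal that animal cells bind with metallothionein, a small cysteine-rich protein, and with glutathione, and it is known to cause oxidative stress.

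Total estimated counts were 20848163, 21653867 and 19011151 in the Cd5 libraries, against 21160462, 20548772 and 19490723 in the controls. The groups overlapped (two-sided exact permutation test over 20 splits, p = 0.9, where 0.1 is the smallest p this design allows). Clusters with a count numbered 105151, 105509 and 101491 in Cd5, against 106924, 97218 and 98269 in the controls, and these overlapped too (exact permutation p = 0.4). Between 470 and 641 tested clusters in each Cd5 library, and between 447 and 628 in each control, had 0 counts in that library alone while each of the other 5 had 10 or more. Cd5 replicate 2 was most often at an extreme: among the 32733 clusters counted in all 6 libraries it had the highest level in 22.4% and the lowest in 20.8%.

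The typical difference between Cd5 and the controls was largest in rare clusters, and in every class its median was smaller than the median standard error. Clusters were put in classes by their mean over the 6 libraries in CPM, the count relative to the scaled library total. CPM is not divided by length, so the classes order clusters by their share of the counts. The class under 1 CPM held 25457 clusters and 1.36% of the counts, while 141 clusters over 1000 CPM held 45.5%.

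The median absolute log2 fold change was 0.82 under 1 CPM, 0.55 at 1 to 10 CPM and 0.41 at 10 to 100 CPM. It was 0.41 at 100 to 1000 CPM and 0.34, a 1.26-fold difference, over 1000 CPM. The median standard error was 1.58, 0.94 and 0.53 in the first 3 classes and 0.50 in both others. Abundant clusters thus had the smaller differences and the smaller errors. The median of the absolute log2 fold change over its standard error was 0.64, 0.59, 0.68, 0.79 and 0.625 from the rarest class to the most abundant. Relative to its error the difference was therefore not largest in rare clusters. With classes by mean FPKM, a level per length, added after the values were seen, the medians were 0.84, 0.51, 0.46, 0.53 and 0.39 from the lowest class to the highest, with no steady decline above 10 FPKM.

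**Figure D1:**
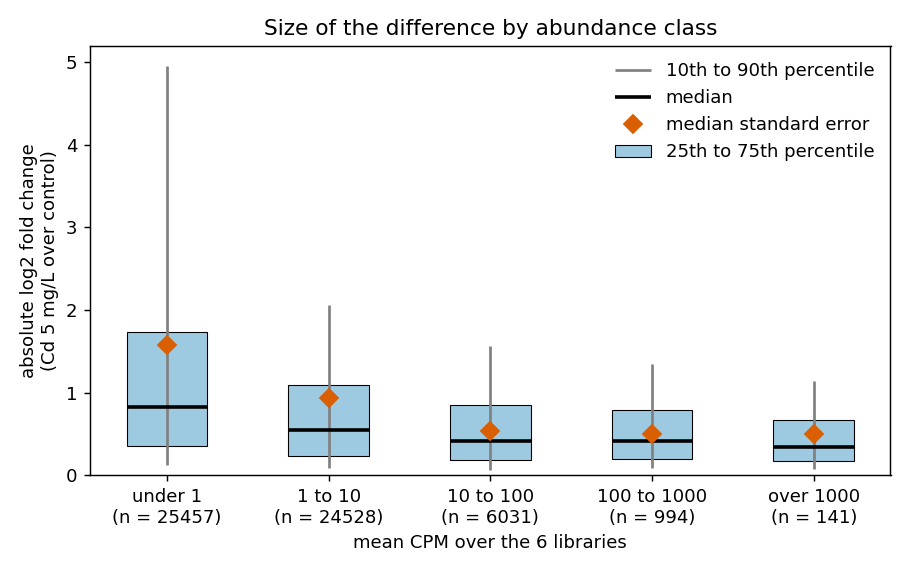
Absolute log2 fold change of Cd 5 mg/L over control (vertical axis) in 5 classes of mean CPM over the 6 libraries (horizontal axis), with the median as a black line, the interquartile range as a box, a grey line between the lowest and highest deciles and the median standard error as a diamond. The median is 0.82 under 1 CPM and 0.34 over 1000 CPM, and it lies below the diamond in each class.

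Large fitted fold changes were mostly in rare clusters. A 2-fold difference or more was fitted for 42.7% of clusters under 1 CPM, 27.9% at 1 to 10 CPM and 20.3% at 10 to 100 CPM. The share was 18.9% at 100 to 1000 CPM and 12.8%, or 18 clusters, over 1000 CPM. An 8-fold difference or more was fitted for 14.1% under 1 CPM, 2.83% at 10 to 100 CPM and 1 cluster over 1000 CPM. Under 1 CPM, 2898 clusters had 0 counts in all libraries of a group, where the fitted value depends on a small added count. With those set to the bound that 3 counts over the group allow, the median under 1 CPM was 0.81 and the share with an 8-fold difference 10.8%.

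The spread between replicates was larger in Cd5 in each class under 100 CPM and smaller in those above. The median SD of log2(CPM + 0.5) was 0.57 in Cd5 and 0.50 in the controls over all clusters. At 10 to 100 CPM it was 0.53 in Cd5 and 0.42 in the controls. Over 1000 CPM it was 0.52 in Cd5 and 0.61 in the controls. Neither group was the more variable one throughout. At least 1 of the 6 libraries had 0 counts in 59.7% of clusters under 1 CPM, in 14.99% at 10 to 100 CPM and in 0 of the 141 over 1000 CPM.

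By edgeR's quasi-likelihood test, 0 of 57151 clusters passed an adjusted p of 0.05 (0.0%), 4 had one under 0.1 and 17 one under 0.3. The count was 7 without Cd2 replicate 1 and 1 without Cd5 replicate 2, Cd5 replicate 3 or Cd10 replicate 1. In those fits the filter kept more clusters, 65147 to 68494. An unadjusted p under 0.05 was found for 3149 clusters (5.51%), of which 1610 (2.82%) had a positive and 1539 (2.69%) a negative log2 fold change. A share near 0.05 would be expected with no difference. With the 6 libraries alone it was 4.83%, and with the replicate number as a block 3.9%. In the main fit the share was 5.54% under 1 CPM, 4.98% at 1 to 10 CPM, 7.11% at 10 to 100 CPM, 7.95% at 100 to 1000 CPM and 5.67% over 1000 CPM. The directions were uneven within classes, with 825 positive and 586 negative under 1 CPM and 173 positive and 256 negative at 10 to 100 CPM. They also moved with the method, to 1684 positive and 1339 negative with library size alone and to 1711 positive and 2129 negative by limma-voom. With the 6 libraries alone 991 were positive and 1131 negative.

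A low p went with a large fold in rare clusters and a moderate one in abundant clusters. Among clusters with an unadjusted p under 0.05 the median absolute log2 fold change was 3.80 under 1 CPM with bounds in place, 1.57 at 10 to 100 CPM and 1.24 over 1000 CPM. Of the 20 clusters of lowest p, 10 were higher and 10 lower in Cd5. In 11 of the 20 all libraries of a group had 0 counts, against 6.22% of all tested clusters.

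Other tools called more clusters. DESeq2's Wald test called 963 of the 55942 clusters to which it gave an adjusted p (1.72%) at a threshold of 0.05, 476 higher and 487 lower in Cd5. Ranges did not overlap in 66.8% of those calls, against 12.3% of all tested clusters. A group had 0 counts throughout in 517 of the 963, against 6.22% of all tested clusters. Limma-voom called 4 (0.007%) and limma on log2(FPKM + 1) called 83 (0.145%).

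In 7012 clusters (12.3%) the ranges of the groups did not overlap. With no difference between the groups, separation in either direction has a probability of 0.1 per cluster, ties aside. Every Cd5 library lay above every control in 3449 (6.03%) and below every control in 3563 (6.23%). In bulk tissue a lower level can come from fewer cells of a type or from less RNA per cell, which cannot be told apart. The split differed between the classes. Under 1 CPM, 1600 clusters (6.29%) were higher and 1084 (4.26%) lower. At 1 to 10 CPM 1399 were higher and 1764 lower, and at 10 to 100 CPM 380 (6.30%) were higher and 627 (10.4%) lower. The classes above held 62 higher and 79 lower, and 8 higher and 9 lower clusters.

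The split also depended on the scaling. With library size alone 3744 clusters were higher and 2954 lower, so that 55.9% of the separated clusters were higher, against 49.2% with TMM. At 10 to 100 CPM that scaling gave 448 higher and 493 lower. The excess of lower clusters turned into an excess of higher ones at 1 to 10 CPM (1530 higher, 1449 lower), at 100 to 1000 CPM (76 higher, 69 lower) and over 1000 CPM (9 higher, 7 lower). Under both scalings, higher clusters were in excess under 1 CPM and lower ones at 10 to 100 CPM.

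**Figure D2:**
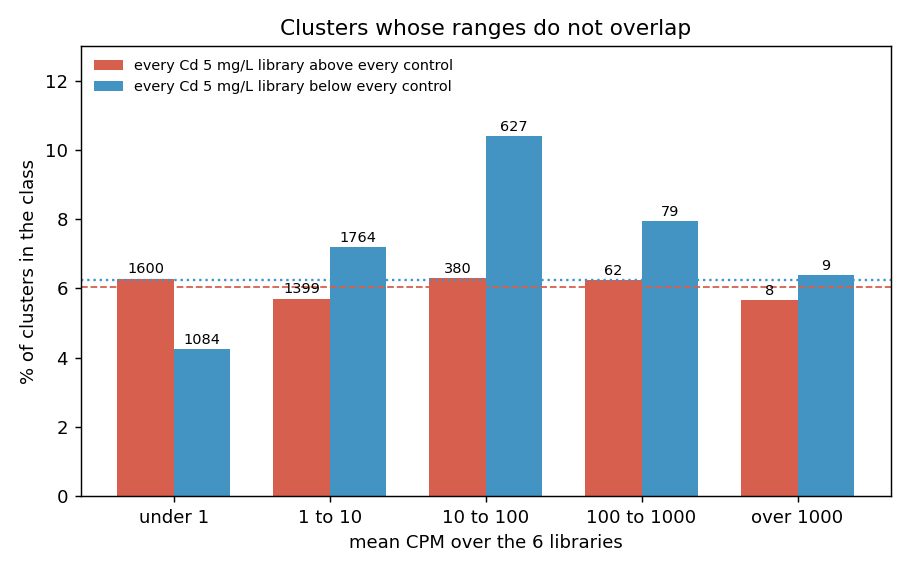
Share of the clusters of each class (vertical axis, %) in which every Cd 5 mg/L library lay above (red) or below (blue) every control with TMM scaling, by mean CPM over the 6 libraries (horizontal axis), with the number of clusters over each bar and lines at the shares of all clusters, 6.03% higher (dashed) and 6.23% lower (dotted). The blue bar is lowest under 1 CPM (4.26%) and highest at 10 to 100 CPM (10.4%), and with library size alone the order of red and blue turns at 1 to 10 CPM and above 100 CPM.

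The filter on low counts asked for 0.548 CPM in 3 of the 12 libraries, so clusters high in only 1 group could pass. Clusters picked by such a level in 1 group and not the other are mostly separated through that choice. At that level in all 3 Cd5 libraries and in no control were 705 tested clusters, of which 679 were in the higher set. In all 3 controls and no Cd5 library were 480, of which 474 were in the lower set. Among the 18975 clusters at that level in all 6 libraries, 1101 were higher and 1670 lower. Of all tested clusters 6.03% were higher and 6.23% lower. The higher and lower sets here are those of TMM scaling.

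Most separated clusters were separated by little. The gap, the nearest library of the upper group over the nearest of the lower group, had a median of 1.25-fold where it was finite. In 581 separated clusters, 393 of them under 1 CPM, the lower group had 0 counts throughout. Their gaps were infinite and are counted at every fold given next, however few counts the upper group had. The gap reached 1.5-fold in 2534 clusters (4.43%), 1299 higher (2.27%) and 1235 lower (2.16%), and 2-fold in 1567 (2.74%), 834 higher (1.46%) and 733 lower (1.28%). A gap of 4-fold was reached by 841 (1.47%), 469 higher (0.821%) and 372 lower (0.651%), and one of 8-fold by 678 (1.19%), 388 higher (0.679%) and 290 lower (0.507%). Of the clusters with a gap of 4-fold, 287 higher and 209 lower ones were under 1 CPM. At 10 to 100 CPM 47 higher and 69 lower clusters were at least 2-fold apart, and 22 higher and 13 lower ones at least 4-fold. The excess of lower clusters in that class was therefore among gaps under 4-fold.

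The 3449 higher clusters summed to 64135, 68218 and 64840 CPM in Cd5, against 26444, 27881 and 29794 CPM in the controls. The 3563 lower ones summed to 51790, 32319 and 38529 CPM in Cd5, against 87181, 100780 and 106094 CPM in the controls. These sums follow from how the clusters were chosen and are a description. The means of the higher set were 65731 ± 2183 CPM in Cd5 and 28040 ± 1681 CPM in the controls, and those of the lower set 40879 ± 9946 CPM in Cd5 and 98019 ± 9754 CPM in the controls (SD, n = 3 each). The higher set thus held more of the counts in Cd5, and the lower set more of them in the controls.

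Positive fold changes made up 52.1% of those that were not 0, and 49.7% without Cd5 replicate 2, where the filter kept more clusters. The share was 55.3% under 1 CPM, 50.2% at 1 to 10 CPM, 48.2% at 10 to 100 CPM, 44.5% at 100 to 1000 CPM and 43.3% over 1000 CPM. The median log2 fold change was 0.04 over all clusters, 0.13 in the rarest class and -0.12 in the most abundant one. Library size alone gave medians of 0.12 over all clusters, 0.21 in the rarest class and -0.02 in the most abundant one, and turned the share at 10 to 100 CPM to 53.7%. Leaving out any 1 Cd5 library turned the share at 1 to 10 CPM to between 48.0% and 49.0%. The order of the 2 most abundant classes turned with single libraries: the medians at 100 to 1000 CPM and over 1000 CPM were -0.10 and -0.06 without Cd5 replicate 3, -0.08 and -0.06 without Cd5 replicate 2, -0.19 and -0.15 without control replicate 1, and -0.03 and -0.01 without control replicate 2. With classes by mean FPKM the shares were 53.3%, 50.7%, 52.1%, 53.9% and 51.2% from the lowest class to the highest, with no such order.

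**Figure D3:**
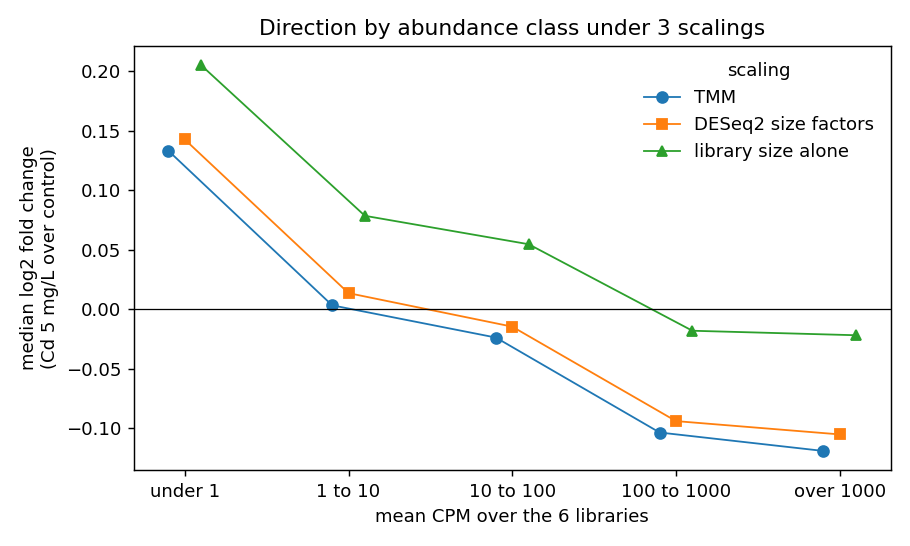
Median log2 fold change of Cd 5 mg/L over control (vertical axis) by class of mean CPM over the 6 libraries (horizontal axis) under 3 scalings. With TMM the median is 0.13 in the rarest class and -0.12 in the most abundant one, and with library size alone every class lies higher, that at 10 to 100 CPM at 0.05.

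Of the 141 clusters over 1000 CPM, 17 had ranges that did not overlap, 8 higher and 9 lower in Cd5. That is 12.1% of the class, close to the 12.3% of all clusters. An unadjusted p under 0.05 was found for 4 of the higher and 1 of the lower ones, and the smallest adjusted p by edgeR was 0.701. The 8 higher clusters made up 1.94% of all CPM in Cd5 and 0.883% in the controls. The 9 lower ones made up 1.32% in Cd5 and 3.56% in the controls, whose mean was 1.36-fold to 3.92-fold that of Cd5. These are clusters singled out after their values were seen. The widest gap among the lower ones, 2.63-fold, was in a cluster with 995, 506 and 1337 CPM in Cd5, against 3618, 3512 and 3983 CPM in the controls. The controls lay close together there, and the Cd5 libraries were spread.

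The widest gap among the 8 higher ones was 230-fold. That cluster had 4142, 3673 and 1868 CPM in Cd5, against 2.87, 1.64 and 8.11 CPM in the controls, and its log2 fold change of 9.58 had a standard error of 2.14 (edgeR adjusted p = 0.701). It stood at 1.80, 3926 and 2132 CPM in Cd2, and at 2.05, 2.14 and 7.85 CPM in Cd10. Its level was thus either under 10 CPM or over 1000 CPM in each of the 12 libraries, and the Cd2 libraries fell on both sides.

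Among clusters of at least 100 CPM, 10 had a gap of at least 4-fold, 6 higher and 4 lower. One of the higher ones had 307, 326 and 399 CPM in Cd5 and 0 counts in every control. Its Cd5 level was 6695-fold the bound set by 3 counts over the controls, and its difference was uncertain (log2 fold change 15.6, standard error 3.87, edgeR adjusted p = 0.836). It had 180, 177 and 259 CPM in Cd2, and in Cd10 it was counted in 1 of 3 libraries. Another, a member of the set of 10 described below, had 869, 468 and 466 CPM in Cd5, with 1 count in the controls together (edgeR adjusted p = 0.344). It stood at 0, 61.2 and 47.4 CPM in Cd2 and at 0.221, 0.169 and 0.592 CPM in Cd10. The Cd2 levels of both lay below those of Cd5.

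In the other direction 1 cluster had 0 counts in every Cd5 library and 257, 300 and 210 CPM in the controls. Its control level was 5263-fold the bound set by 3 counts over the Cd5 libraries (log2 fold change -15.2, standard error 4.25, edgeR adjusted p = 0.882). It stood at 206, 0 and 0 CPM in Cd2 and at 621, 319 and 256 CPM in Cd10. A further cluster with 0 counts in Cd5 had 266, 1049 and 3.43 CPM in the controls, which were far apart from each other. Another lower cluster, counted in all 6 libraries, had 71.6, 70.7 and 69.5 CPM in Cd5, against 720, 370 and 441 CPM in the controls, with a log2 fold change of -2.85 and a standard error of 0.60 (edgeR adjusted p = 0.584).

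**Figure D4:**
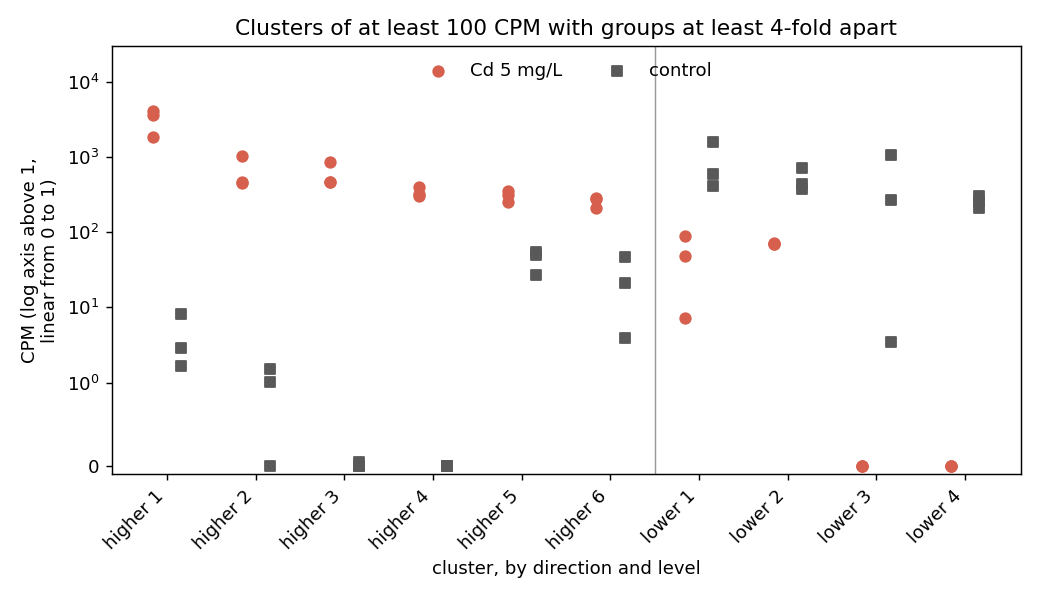
Level in CPM (vertical axis, log above 1 and linear below) of the 10 clusters of at least 100 CPM whose groups were at least 4-fold apart, numbered within each direction by level (horizontal axis), with a red circle for each Cd 5 mg/L library and a grey square for each control. In the 6 higher clusters every control lies at or below 54.1 CPM, and in the 4 lower ones every Cd 5 mg/L library lies at or below 89.9 CPM.

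Some clusters were counted in only 1 of the groups. With 0 counts in all controls, 332 clusters had counts in all Cd5 libraries, 175 of them 10 or more in each and 17 of them 100 or more. With 0 counts in all Cd5 libraries, 249 had counts in all controls, 140 of them 10 or more in each and 15 of them 100 or more. Most were rare, with a median of 2.05 CPM in Cd5 for the 175 and of 2.03 CPM in the controls for the 140. Of the 175, 34 had 0 counts in all of Cd2 and 33 in all of Cd10, and 27 and 25 were counted in all 3 libraries. The others, 114 in Cd2 and 117 in Cd10, were counted in some libraries of the dose and not in others. Of the 140, 19 had 0 counts in all of Cd2 and 37 in all of Cd10, and 37 and 23 were counted in all 3 libraries. Library totals of Cd2 and Cd10 were not compared with those of Cd5, and whether depth affected these numbers was not tested.

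Identifiers are given for 4 clusters, by a rule that asked for counts in all 6 libraries, a mean of at least 10 CPM and ranges that do not overlap (386 higher and 649 lower clusters), and took the 2 of lowest edgeR p in each direction. The rule chose them by their difference, so their values are a description.

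Cluster-27942.63967 had 76.9, 47.9 and 46.9 CPM in Cd5, against 3.998, 3.05 and 3.10 CPM in the controls. It stood at 4.12, 10.5 and 8.33 CPM in Cd2 and at 2.88, 3.49 and 2.30 CPM in Cd10. Every Cd5 library was above all 9 others, and the gap to the controls was 11.7-fold. The log2 fold change was 4.08 with a standard error of 0.45 (edgeR adjusted p = 0.0559, and 0.0313 without Cd2 replicate 1). Deposited FPKM averaged 457 ± 74.0 in Cd5 and 29.0 ± 9.73 in the controls (SD, n = 3 each).

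Cluster-27942.63946 had 72.3, 37.3 and 25.4 CPM in Cd5, against 1.09, 1.36 and 1.07 CPM in the controls. It stood at 1.47, 6.80 and 3.89 CPM in Cd2 and at 1.66, 1.52 and 2.22 CPM in Cd10. The Cd5 libraries were again above all others, with replicate 1 again the highest. The log2 fold change was 5.26 with a standard error of 0.66 (edgeR adjusted p = 0.146, and 0.0423 without Cd2 replicate 1).

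These 2 belonged to a set of 10 clusters whose levels varied together, looked for after the values were seen and given with no test. Over the 12 libraries, 9 of 7165 other clusters of at least 10 CPM had a Pearson r of at least 0.95 with Cluster-27942.63967 on log2(CPM + 0.5), and 9 with Cluster-27942.63946, and together with the 2 these are the same 10. The set includes the cluster described above with 869, 468 and 466 CPM in Cd5, so it and the 2 named here are not separate observations. All points share the 12 libraries. The median of the 10 was 69.8, 43.2 and 28.5 CPM in Cd5, against 0.348, 0.480 and 0.141 CPM in the controls. It was 0.254, 7.29 and 5.00 CPM in Cd2 and 0.415, 0.422 and 0.407 CPM in Cd10. This median was high in Cd5, lower in 2 of the Cd2 libraries, and under 1 CPM in the other 7 libraries, where the highest member of the set stood between 2.30 and 4.12 CPM. The length implied by counts and FPKM ran from 26.7 to 1018 bases with a median of 62.9. It need not equal the length of the sequence, which was not given. In 9 of the 10 some counts were not whole, and whether reads were divided among the 10 was not tested, so their separate levels are uncertain.

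Cluster-27942.68099 had 21.0, 17.2 and 13.8 CPM in Cd5, against 62.8, 53.9 and 72.2 CPM in the controls. It stood at 29.8, 29.7 and 36.05 CPM in Cd2 and at 10.2, 13.7 and 17.9 CPM in Cd10. All 9 libraries with cadmium lay below all controls, those of Cd5 and Cd10 overlapped, and those of Cd2 lay between them and the controls. The log2 fold change for Cd5 was -1.86 with a standard error of 0.31 (edgeR adjusted p = 0.329).

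Cluster-27942.84694 had 0.976, 1.34 and 0.556 CPM in Cd5, against 16.03, 24.97 and 19.4 CPM in the controls. It stood at 9.81, 4.71 and 3.64 CPM in Cd2 and at 3.37, 15.6 and 1.48 CPM in Cd10. All libraries with cadmium were again below all controls, though Cd10 replicate 2 was close to the lowest of them. The log2 fold change for Cd5 was -4.39 with a standard error of 0.89 (edgeR adjusted p = 0.518). The highest r of another cluster was 0.94 with Cluster-27942.68099 and 0.86 with Cluster-27942.84694, and 0 reached 0.95 with either.

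**Figure D5:**
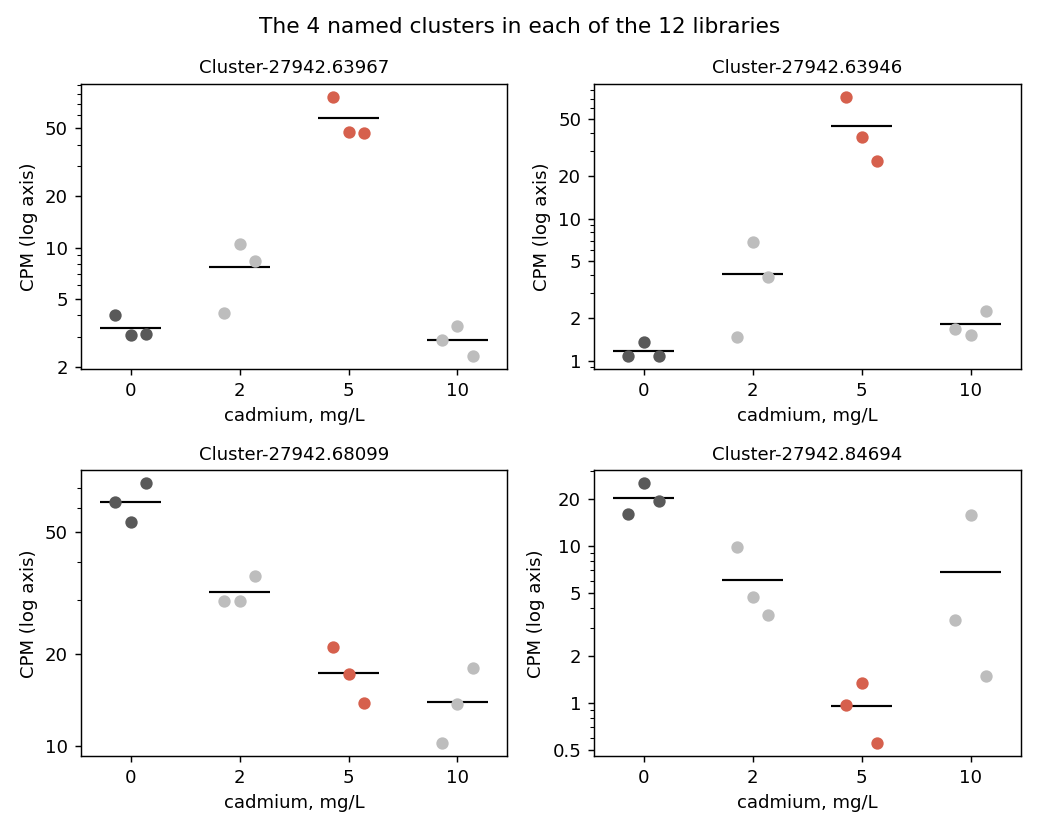
Level in CPM (vertical axes, log scale) of the 4 named clusters in each of the 12 libraries, by cadmium dose in mg/L (horizontal axes), with Cd 5 mg/L in red, controls (0) in dark grey, the other doses in light grey and the group mean as a line. The upper pair averages 57.2 and 44.98 CPM at 5 mg/L, above every other library, and the lower pair 17.4 and 0.956 CPM, below every control.

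The other doses were set against the same 3 controls, so the comparisons share them, and differences between the doses were not tested. The share of all tested clusters with ranges apart from the controls was 15.2% in Cd2, 12.3% in Cd5 and 16.8% in Cd10. From the rarest class to the most abundant it was 12.1%, 16.9%, 21.1%, 19.6% and 17.0% in Cd2, 10.5%, 12.9%, 16.7%, 14.2% and 12.1% in Cd5, and 13.9%, 18.3%, 22.5%, 19.6% and 21.3% in Cd10. The classes were set by the mean over the Cd5 and control libraries, so clusters in the abundant classes were chosen for being high in those and not in Cd2 or Cd10. Directions by class are for that reason not compared between the doses.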

How the data were processed

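Hepatopancreas was flash frozen, RNA was taken up with Tri Reagent and Illumina libraries were made, per the labels' protocols. The authors deposited an estimated count and an FPKM value per cluster, per the file headers. No source used here names the assembler, aligner or counting tool. Members, lists and rules were chosen with earlier results of these data known.

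Estimated counts were rounded. Clusters were kept by filterByExpr (minimum count 10, minimum total 15), which kept 98.7% of the counts of the 6 libraries. The main test was edgeR 4.0.16 (TMM, glmQLFit, glmQLFTest, 1 coefficient per group, all 12 libraries), with Benjamini-Hochberg adjustment over 57151 clusters and a threshold of 0.05. CPM values are TMM-scaled. Each standard error is the fold change over the root of its F. Identifiers were named by the rule given with them. Alternatives were DESeq2 1.42.0, limma 3.58.1, other scalings and filters, the 6 libraries alone, a replicate block and left-out libraries, and classes by FPKM were added after the values were seen. Bounds from 3 counts cover counting error only. Scripts were tested on simulated data. The other software was R 4.3.3, scipy 1.17.1, pandas 2.3.3, numpy 2.4.6 and Python 3.11.15.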

Additional observations from a re-analysis of the deposited data

How the results depend on the processing

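EdgeR's quasi-likelihood test called 0 clusters as reported, with library size alone, with no low-count filter and with the 6 libraries alone, 2 with DESeq2 size factors and 4 with a filter of 5 CPM in 3 libraries, which tests fewer clusters. DESeq2 called 963, limma-voom 4, and limma on log2(FPKM + 1) and log2(FPKM + 0.1) 83 and 53. With each of the 12 libraries left out the filter was applied again and kept 65147 to 69389 clusters, of which edgeR called 0 to 7. An unadjusted p under 0.05 was found for 7643 (4.64%) with no low-count filter and 1034 (6.69%) with the filter of 5 CPM. It was found for 5019 (8.78%) by DESeq2 and for 2784 to 4039 (4.22% to 5.84%) with a library left out. The 6 libraries alone gave 2122 of 43922 (4.83%), and the replicate block 2249 of 57151 (3.9%). Clusters that did not overlap numbered 14479 (8.78%) with no filter, 2283 (14.8%) with the filter of 5 CPM and 1567 (2.74%) with a gap of at least 2-fold. They numbered 11917 to 13251 (20.9% to 23.2%) with 1 of the 6 libraries left out, where fewer libraries have to be apart.

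The median absolute log2 fold change from mean FPKM + 1 was 0.27 over all clusters, 0.22 under 1 CPM and 0.31 at 1 to 10 CPM, where the added 1 shrinks low values. The filter of 5 CPM left 88 clusters under 1 CPM, with a median of 2.15. With 1 of the 6 libraries left out the filter kept more clusters, 65147 to 65968 against 57151. Under 1 CPM these were 33228 to 34051 against 25457. The median was then 0.71 to 0.79 over all clusters. From the rarest class to the most abundant it was 0.98 to 1.05, 0.57 to 0.65, 0.42 to 0.49, 0.39 to 0.50 and 0.31 to 0.44.

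The share of positive fold changes was 55.6% with library size alone, 52.6% with DESeq2 size factors, 51.5% with the 6 libraries, 51.4% with the filter of 5 CPM, 54.0% on FPKM and 49.7% to 54.6% with a library left out. At 10 to 100 CPM it turned to 53.7% with library size alone, 51.5% with the filter of 5 CPM and 52.2% on FPKM. At 1 to 10 CPM it turned to 49.5% with no filter, and was 48.0% to 51.7% with a library left out. Cd5 minus controls, with a library left out, ran from -470329 to 851029 total counts, from 1454 to 6307 clusters detected and from -2.36 to 0.181 percentage points for the 1000 most abundant clusters. For these shifts the cause was not tested.

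With the replicate number as a block edgeR called 0 clusters. Same-numbered Cd5 and control libraries showed no shared deviations, with correlations of -0.043 to -0.030. Those with different numbers stood at -0.0047 to 0.036. With 3 libraries per group a weak pairing could go unseen. Over all alternatives the log2 fold change was 3.80 to 4.21 for Cluster-27942.63967, 4.73 to 5.54 for Cluster-27942.63946, -2.03 to -1.72 for Cluster-27942.68099 and -4.71 to -3.15 for Cluster-27942.84694, and they passed an adjusted p of 0.05 in 6, 5, 1 and 1 of the alternatives.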

Other observations

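Clusters were also counted by features of their deposited values, looked at after the fold changes were known and not tested. With an implied length under 500 bases, 792 clusters (7.76%) were higher in every Cd5 library than in every control and 544 (5.33%) lower. At 2000 to 4000 bases 686 (5.10%) were higher and 892 (6.63%) lower. Within 1 to 10 CPM the shortest class had 320 higher (7.35%) and 270 lower (6.20%), and that of 2000 to 4000 bases 347 higher (5.03%) and 509 lower (7.38%). Of the 50055 clusters that share the most frequent first number of the identifier, 2960 (5.91%) were higher and 3224 (6.44%) lower. Of the 7096 others 489 (6.89%) were higher and 339 (4.78%) lower. Ranges did not overlap in 12.3% and 11.7% of these sets, against 12.3% of all clusters. At 10 CPM or more, 1452 clusters with whole counts in all 6 libraries had a median absolute log2 fold change of 0.30 and a median standard error of 0.39, and 5714 with a count that was not whole had 0.45 and 0.59. Ranges did not overlap in 15.6% of the clusters with whole counts and in 16.4% of the others.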
